A study of Mus musculus with 27 samples.

Results

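Ligands, receptors and latent binders of transforming growth factor beta (TGF-β) were followed in the tibialis anterior, a muscle of the front of the lower hindlimb, after volumetric muscle loss (VML), the loss of a large piece of muscle. The set held 10 of the 54532 genes in the deposited expression table, each chosen by its gene symbol. These were the ligands Tgfb1, Tgfb2 and Tgfb3, the receptors Tgfbr1, Tgfbr2 and Tgfbr3, the latent binders Ltbp1, Ltbp2 and Ltbp3, and Tgfbi, a matrix protein named for its induction by TGF-β. All samples came from C57BL/6 mice, described as male and 8 weeks of age, and were wild type as far as the labels say. The groups were muscle with no injury (n = 5) and muscle taken 3 days (n = 5), 7 days (n = 6), 14 days (n = 6) and 21 days (n = 5) after 40% of the muscle had been excised, and no group received any other agent. The study's methods call the excision bilateral and the public design text calls it unilateral. The labels do not tie a sample to a mouse, so the p-values measure the spread between these samples.

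The TGF-β ligands are made as inactive precursors, each kept in a latent complex by its own propeptide. LTBPs tie this complex to the extracellular matrix, from which integrins, proteases and thrombospondin can release the ligand. The free ligand binds the type II receptor, encoded by Tgfbr2, which recruits and phosphorylates the type I receptor, encoded by Tgfbr1, and this in turn activates SMAD transcription factors, while the type III receptor betaglycan, encoded by Tgfbr3, presents ligand, Tgfb2 above all. In skeletal muscle the pathway is known for driving matrix production by fibroblasts and for restraining the differentiation of myoblasts.

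RNA was measured as FPKM, fragments scaled to gene length and to sequencing depth, so that levels can be compared between genes of different length. The recovered reads totalled 14376395 to 24436763 per sample. Differences were computed on log2(FPKM + 1), which understates the change of genes with low FPKM, and are called where the Benjamini-Hochberg adjusted p of limma was under 0.05 among 14630 genes tested. Of the 27 libraries, 9 lay nearer to the mean profile of another group than to that of their own. Among these, day 3 replicate 5 lay nearest to the day 7 mean and day 7 replicate 5 nearest to the day 3 mean, and day 7 replicate 3 lay nearest to the muscles without injury. A scaling between samples was already part of the deposited table. When every sample was brought to the same summed FPKM instead, the medians of all genes against no injury became 0.50, 0.47, 0.28 and 0.11 on the log2 scale for the 4 times in order, from 0.01, 0.03, 0.02 and 0.01. The share of higher genes among the calls became 95.7%, 96.9%, 93.9% and 88.9%, from 54.1%, 51.0%, 44.5% and 50.8%. Under this scaling, called a common sum below, 9, 9, 5 and 0 of the 10 members were higher at the 4 times, and none was lower. Of all genes tested, 46.9%, 42.7%, 10.9% and 0.265% were then called higher, and 2.13%, 1.38%, 0.701% and 0.0331% lower. This scaling moved the difference of each member from no injury upward at each of the 4 times.

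The promoters of Tgfb1 and Tgfb2 are shown because these ligands moved in opposite directions in the deposited scaling, although Tgfb2 did not lie below 0 at days 3 and 7 with the common sum. Each run is the 250 bases before the gene's start, taken from RefSeq on GRCm38.p6, where entries were found for 8 of the 10 members. Capitals mark the motifs searched on both strands, which were the GC box GGGCGG, the TATA sequence TATAAA, the Smad-binding sequence CAGACA and the AP-1 site TGANTCA. The Tgfb1 window is at chr7:25686752-25687001 on the plus strand, and the Tgfb2 window at chr1:186705990-186706239 on the minus strand.
Tgfb1: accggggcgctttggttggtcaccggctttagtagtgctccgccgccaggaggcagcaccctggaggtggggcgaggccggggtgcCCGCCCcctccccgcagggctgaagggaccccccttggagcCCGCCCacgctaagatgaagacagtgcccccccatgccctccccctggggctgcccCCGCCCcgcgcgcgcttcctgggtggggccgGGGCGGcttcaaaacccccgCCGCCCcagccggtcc
Tgfb2: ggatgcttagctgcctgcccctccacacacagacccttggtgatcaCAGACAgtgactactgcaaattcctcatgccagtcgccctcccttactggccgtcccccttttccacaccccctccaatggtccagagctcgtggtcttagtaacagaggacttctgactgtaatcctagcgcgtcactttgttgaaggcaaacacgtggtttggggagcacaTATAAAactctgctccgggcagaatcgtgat
The Tgfb1 window had a GC content of 75.2% and held 5 GC boxes and none of the other 3 motifs. The Tgfb2 window had a GC content of 53.6% and held no GC box, but a TATAAA that begins 31 bases before the start and 1 CAGACA. Of all 32851 promoter windows of this length, 32.7% held a GC box, 12.4% a TATAAA, 17.1% a CAGACA and 6.75% a TGANTCA. The windows of Ltbp2 and Tgfbi, the members whose levels followed each other most closely, held 2 and 1 GC boxes and none of the other motifs.

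Against muscle without injury, most members were higher at the first 3 times and 1 was still called at day 21. At day 3, 6 of the 10 members were called higher and 1 lower, where 23.4% of all genes tested were called higher and 19.8% lower. At day 7, 8 members were called higher and none lower, beside 15% and 14.4% of all genes. At day 14, 6 were higher and 1 lower, beside 9.02% and 11.3% of all genes. At day 21 only Tgfbr3 was called, higher, beside 1.74% of all genes called higher and 1.69% lower. The members' median difference was 0.66, 0.66, 0.58 and 0.30 in the same order, whereas the median of all genes tested was 0.01, 0.03, 0.02 and 0.01. These 4 comparisons share the same 5 uninjured samples and are not independent of each other. Ltbp2, called at days 3 and 7, entered the test through the groups in which it was high. In muscle as a whole, more cells of a type and more RNA per cell cannot be told apart.

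**Figure D1:**
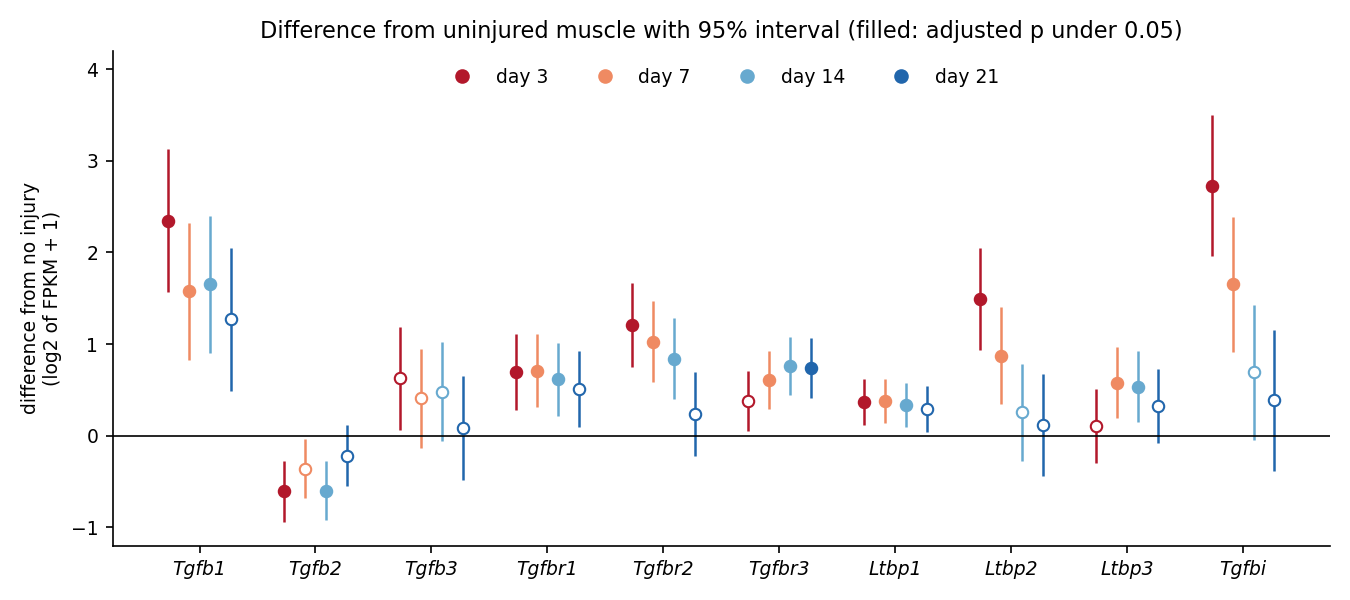
Difference of each member from muscle without injury on the log2(FPKM + 1) scale (vertical axis) for 10 genes (horizontal axis) at days 3, 7, 14 and 21, with 95% intervals from limma; filled points had an adjusted p under 0.05. Tgfbi (2.73) and Tgfb1 (2.35) at day 3 stand highest, Tgfb2 lies below 0 at all 4 days under the deposited scaling but above 0 at days 3 and 7 with a common sum, and Tgfbr3 is the only member still called at day 21.

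Tgfb1, the ligand best known in injury and fibrosis (GRCm38, chr7:25687002-25705077, plus strand), rose most among the ligands. The uninjured muscles had 3.71, 2.75, 2.89, 2.46 and 2.95 FPKM. At day 3 the samples had 19.5, 14.0, 25.05, 31.6 and 11.3 FPKM, all above the uninjured range. Tgfb1 was higher by 2.35 ± 0.38 (SE) at day 3, with an adjusted p of 3.33e-05. At day 7 the 6 samples ran from 2.46 to 30.03 FPKM with a median of 12.3, and day 7 replicate 3, the lowest, lay just below the lowest uninjured muscle, while the other 5 were above the uninjured range. The difference at day 7 was 1.58 ± 0.36 (adjusted p = 0.00269). At day 14 the samples lay close together, from 9.52 to 12.7 FPKM with a median of 11.9, and were again all above the uninjured range. The rise at day 14 was 1.65 ± 0.36 (adjusted p = 0.00309). At day 21 the values were 11.95, 10.2, 9.79, 6.14 and 5.88 FPKM, still all above the uninjured range, although the difference of 1.27 ± 0.38 missed the threshold (adjusted p = 0.0589). It passed without day 7 replicate 3, 4, 5 or 6, whose adjusted p-values were 0.015, 0.0494, 0.0299 and 0.0471. Of 41 alternative settings, 9 called it and 32 left it uncalled. The others that called it included a pseudocount of 0.1 (adjusted p = 0.0426) and sample quality weights (adjusted p = 0.000147). A fit of the 2 groups alone (adjusted p = 0.00298) and a replicate block by letter (adjusted p = 0.0271) did too. So did leaving out both day 3 replicate 5 and day 7 replicate 5 (adjusted p = 0.0252).

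Tgfb2, a ligand on chromosome 1 (chr1:186622792-186705989, minus strand), went the other way under the deposited scaling. The uninjured muscles had 3.92, 3.40, 3.61, 5.08 and 3.88 FPKM. The day 3 muscles had 2.59, 2.66, 1.99, 1.83 and 2.23 FPKM, all below the uninjured range. Tgfb2 fell by 0.61 ± 0.16 on the log2 scale at day 3 (adjusted p = 0.00395) and by 0.60 ± 0.16 at day 14 (adjusted p = 0.00894), where the 6 samples ran from 1.56 to 3.18 FPKM with a median of 2.34. These falls depend on the scaling, since with a common sum per sample the first 3 times gave 0.01, 0.21 and −0.22 in order, none of them called. Quantile normalization and median-ratio scaling kept the calls at days 3 and 14. They were lost only with a common sum or with the own total of reads as denominator. At day 7 the 6 samples ran from 1.72 to 4.27 FPKM with a median of 2.87 and overlapped the uninjured muscles (−0.36 ± 0.16, adjusted p = 0.0832). Day 7 replicate 3 was the highest, and without it Tgfb2 was called lower at day 7 (−0.45, adjusted p = 0.0256). The day 21 muscles had 2.71, 3.16, 3.76, 4.29 and 2.57 FPKM and overlapped the uninjured range (−0.22 ± 0.16, adjusted p = 0.479).

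Tgfb3, the third ligand (chr12:86056745-86079041, minus strand), was the most abundant ligand without injury and was called at no day in the deposited scaling. Its uninjured level was 10.4 ± 1.83 FPKM (SD, n = 5), and its samples ran from 8.79 to 13.4. At day 3 the level was 16.98 ± 4.83 FPKM (n = 5), with 4 samples between 16.2 and 22.5 and replicate 5 at 9.60, inside the uninjured range. The difference of 0.62 ± 0.28 had an adjusted p of 0.0699, which became 0.0225 without day 3 replicate 5 and 0.0487 without day 7 replicate 3. With a common sum Tgfb3 was called higher at day 3 (1.39, adjusted p = 0.00692) and day 7 (1.09, adjusted p = 0.0286). Weights that count a sample less the farther it lies from its group called it at these times too (0.67, adjusted p = 0.00344, and 0.66, adjusted p = 0.0194). At day 7 the samples spread from 7.20 to 26.2 FPKM around a median of 13.7, and at day 14 they ran from 12.8 to 18.2 (median 14.6). Against no injury, day 7 differed by 0.41 ± 0.26 (adjusted p = 0.251), day 14 by 0.48 ± 0.26 (adjusted p = 0.198) and day 21 by 0.08 ± 0.28 (adjusted p = 0.902). Counting did not use strand, and Ttll5, which overlaps Tgfb3 on the opposite strand, reached at most 0.636 FPKM.

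The proportions within a sample do not depend on the scaling between samples. Without injury, Tgfb3 made up 59.7 ± 3.59% (SD, n = 5) of the summed FPKM of the 3 ligands, Tgfb2 23.2 ± 4.45% and Tgfb1 17.1 ± 1.498%. At day 3, Tgfb1 made up 50.3 ± 7.50%, from 38.5% to 57.0% over the 5 samples, and Tgfb2 6.31 ± 2.49%. In every day 3 sample the share of Tgfb1 was above, and that of Tgfb2 below, the whole uninjured range, which was 14.8% to 18.9% for Tgfb1 and 18.6% to 30.4% for Tgfb2. At day 7 the share of Tgfb1 ran from 17.6% to 71.7%, lowest in replicate 3 and highest in replicate 5. At day 21, Tgfb1 still made up 37.2 ± 2.76% and Tgfb2 14.9 ± 5.24%. The summed ligand FPKM went from 17.3 ± 2.22 in uninjured muscle up to 39.5 ± 11.97 after 3 days, then back to 23.5 ± 6.11 after 21 days.

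**Figure D2:**
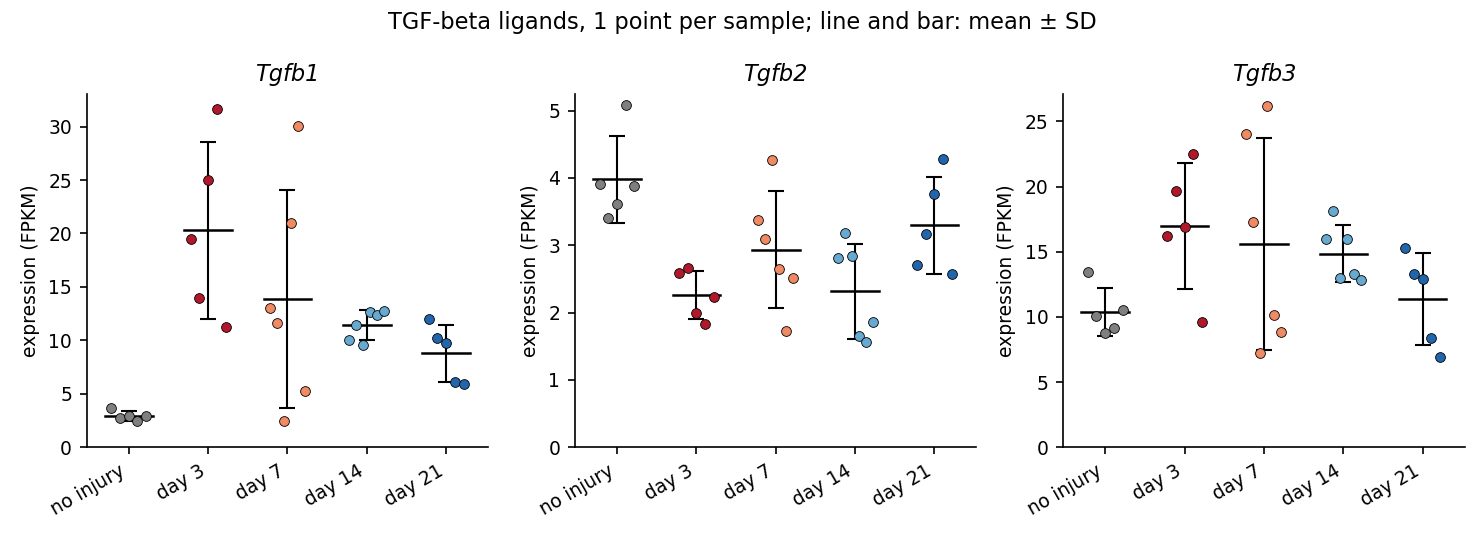
Expression in FPKM (vertical axes, each from 0) of Tgfb1, Tgfb2 and Tgfb3 in 27 muscle samples by group (horizontal axes); points are samples, lines and bars are the mean ± SD. Tgfb1 rises from 2.46 to 3.71 FPKM without injury to 11.3 to 31.6 at day 3, Tgfb2 is lower at day 3 and day 14 in the deposited scaling, and the day 7 samples spread widely for Tgfb1 and Tgfb3.

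Of the receptors, Tgfbr2, the type II receptor that binds the ligand first (chr9:116084293-116175360, minus strand), rose most. Its uninjured muscles had 2.80, 2.84, 2.03, 3.03 and 2.46 FPKM, and its day 3 muscles 5.91, 7.19, 8.17, 7.59 and 8.20. The day 3 samples were close to each other and all above the uninjured range (1.21 ± 0.22, adjusted p = 0.000129). At day 7 the samples ran from 2.75 to 9.47 FPKM around a median of 7.74, and replicate 6 fell inside the uninjured range (1.03 ± 0.21, adjusted p = 0.00125). At day 14 they ran from 3.54 to 8.12 FPKM around a median of 5.66, all above the uninjured muscles (0.84 ± 0.21, adjusted p = 0.00776). At day 21 the values of 3.58, 3.57, 3.93, 3.37 and 2.14 FPKM overlapped the uninjured muscles, and the difference of 0.24 ± 0.22 was not called (adjusted p = 0.588).

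Tgfbr1, the type I receptor kinase (chr4:47353222-47414931, plus strand), rose by similar amounts at each of the first 3 times. From 2.51 ± 0.532 FPKM without injury (n = 5), its mean reached 4.86 ± 1.81 (n = 5), 4.94 ± 1.90 (n = 6) and 4.37 ± 0.649 (n = 6) in order. The differences were 0.70 ± 0.20 (adjusted p = 0.007), 0.71 ± 0.19 (adjusted p = 0.00817) and 0.62 ± 0.19 (adjusted p = 0.0257). The ranges overlapped the uninjured one at days 3 and 7 and did not at day 14. At day 21 all 5 samples, from 3.75 to 4.63 FPKM, were above the uninjured maximum of 3.22, and the difference of 0.51 ± 0.20 was not called (adjusted p = 0.157). The day 14 call was lost when uninjured replicate 1 or 3, or day 14 replicate 4 or 5, was left out, with adjusted p-values of 0.0765, 0.0525, 0.0555 and 0.0571. It was also lost with quantile normalization (0.55, adjusted p = 0.0597) and with no filter on low values (adjusted p = 0.0557). The day 21 difference was called in 3 of 41 alternatives. They were sample quality weights (adjusted p = 0.0243), a replicate block by letter (adjusted p = 0.0429) and 2 groups per fit (adjusted p = 0.0247).

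Tgfbr3, betaglycan (chr5:107106570-107289629, minus strand), was called from day 7 on and was the only member called at day 21. The uninjured muscles had 1.85, 2.20, 1.93, 2.07 and 1.65 FPKM. At day 3 the samples had 2.94, 2.30, 2.79, 2.30 and 3.999 FPKM, all above the uninjured range, with a difference of 0.38 ± 0.16 that was not called (adjusted p = 0.0563). It was called when day 3 replicate 2 or 4, day 7 replicate 1 or 5, or day 14 replicate 3 or 5 was left out, with adjusted p-values from 0.0352 to 0.049, and also with a common sum (0.96, adjusted p = 0.00326) or the own total of reads as denominator (0.83, adjusted p = 0.00233). From day 7 on, Tgfbr3 was above the uninjured range in every sample of each group. It ran from 2.54 to 5.49 FPKM at day 7 (median 3.35) and from 2.56 to 5.597 at day 14 (median 4.15). Those of day 21 had 4.02, 3.52, 4.11, 3.17 and 4.89 FPKM. Its rises over these 3 times were 0.60 ± 0.15 (adjusted p = 0.00505), 0.76 ± 0.15 (adjusted p = 0.00184) and 0.74 ± 0.16 (adjusted p = 0.0122). With a common sum per sample the day 21 difference was 0.83, but its adjusted p was 0.18.

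**Figure D3:**
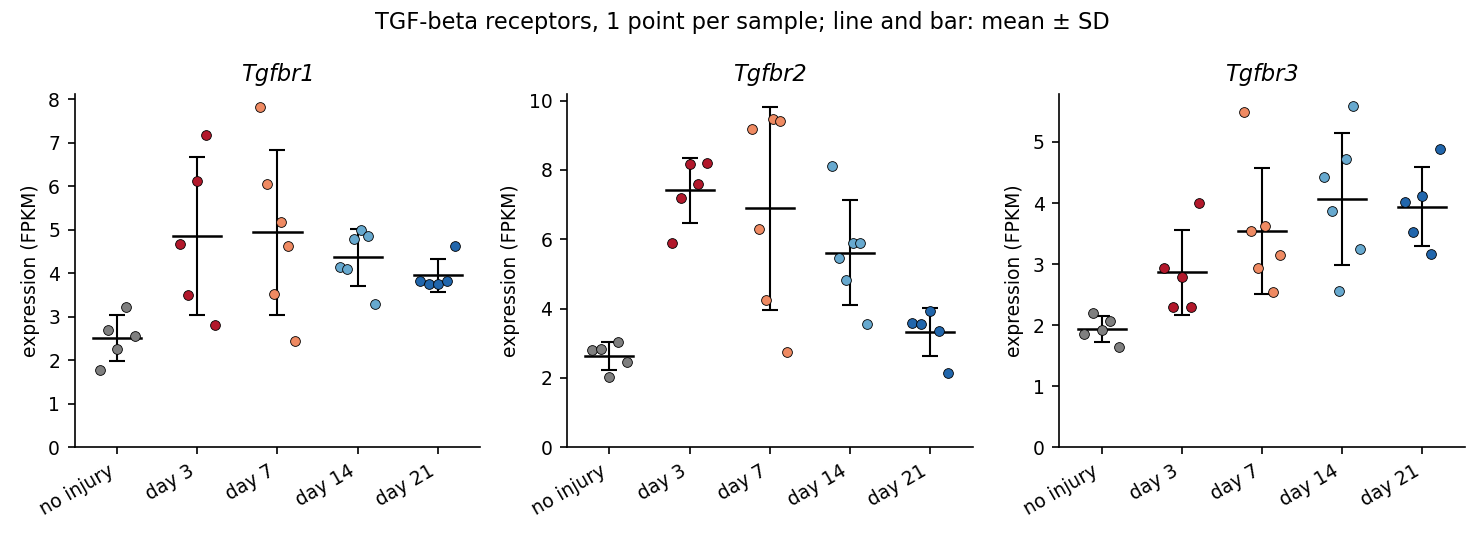
Expression in FPKM (vertical axes, each from 0) of Tgfbr1, Tgfbr2 and Tgfbr3 in 27 muscle samples by group (horizontal axes); points are samples, lines and bars are the mean ± SD. Tgfbr2 stands highest at day 3 (5.91 to 8.20 FPKM) and overlaps the uninjured muscles at day 21, whereas Tgfbr3 stays above them (3.17 to 4.89 FPKM at day 21).

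The proportions among the receptors moved between early and late samples. Tgfbr2 made up 49.2 ± 5.52% (SD, n = 5) of the summed receptor FPKM at day 3, against 37.2 ± 3.95% without injury and 29.7 ± 6.36% at day 21. Tgfbr3 made up 19.2 ± 5.13% at day 3, against 27.6 ± 2.68% without injury and 35.0 ± 4.28% at day 21. The ranges of day 3 and day 21 did not overlap for either receptor, at 43.7% to 55.3% and 18.4% to 33.3% for Tgfbr2, and at 13.5% to 26.7% and 30.6% to 41.9% for Tgfbr3.

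Among the latent binders, Ltbp2 (chr12:84783212-84876532, minus strand), a matrix protein of elastic fibres that unlike the other LTBPs is not thought to bind latent TGF-β, was nearly absent without injury. The uninjured muscles had 0.128, 0.014, 0.021, 0.060 and 0.109 FPKM, resting on 2 to 14 reads each. At day 3 the samples had 1.41, 2.16, 2.90, 3.67 and 0.741 FPKM, from 129 to 685 reads, all above the uninjured range. Ltbp2 rose by 1.49 ± 0.27 at day 3 (adjusted p = 0.000113) and by 0.87 ± 0.26 at day 7 (adjusted p = 0.0136). The day 7 call was lost with 2 groups per fit (adjusted p = 0.0594). The mean FPKM was 32.8 times the uninjured mean at day 3, a larger change than the log2(FPKM + 1) scale gives. At day 7 the samples ran from 0.165 to 3.18 FPKM around a median of 0.807, highest in replicate 5, and at day 14 from 0.124 to 0.603 (median 0.248). Ltbp2 was not called at day 14 (0.25 ± 0.26, adjusted p = 0.506) or at day 21 (0.12 ± 0.27, adjusted p = 0.85), where the samples had 0.116, 0.422, 0.138, 0.122 and 0.011 FPKM. Ltbp2 reached the minimum of 0.5 FPKM in 9 samples, of which 5 were at day 3, 3 at day 7 and 1 at day 14, so it entered the test through the groups in which it was high. The other 9 members reached it in all 27 samples.

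Ltbp3 (chr19:5740904-5758532, plus strand), which does bind the latent complex, was by far the most abundant LTBP of the 3, with 91.2 ± 1.96% of their summed FPKM without injury. Its level was 11.6 ± 1.33 FPKM without injury and 12.7 ± 2.68 at day 3, where it was not called (0.10 ± 0.20, adjusted p = 0.71). With a common sum it was called at day 3 (0.86, adjusted p = 0.0264), as it was with the own total of reads as denominator (0.72, adjusted p = 0.0288). It rose by 0.58 ± 0.19 at day 7 (adjusted p = 0.0232) and by 0.54 ± 0.19 at day 14 (adjusted p = 0.0452). At day 7 its 6 samples ran from 11.7 to 28.2 FPKM, with replicates 3, 5 and 6 between 11.7 and 13.7. At day 14 they ran from 14.2 to 18.7 FPKM, all above the uninjured maximum of 13.4. The day 7 call was lost without uninjured replicate 1 or day 7 replicate 1 or 4 (adjusted p from 0.0617 to 0.0728). With 2 groups per fit it was lost as well (adjusted p = 0.103). The day 14 call was lost in 14 of the 27 leave-outs, with adjusted p-values from 0.0503 to 0.109. These were uninjured replicates 1, 2, 4 and 5, day 3 replicates 3 and 4, day 14 replicates 1, 2, 4, 5 and 6, and day 21 replicates 1, 2 and 3. The day 14 call was also lost with no filter on low values (adjusted p = 0.0883).

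Ltbp1 (chr17:75005568-75392512, plus strand), another carrier of the latent complex, rose by a small amount at the first 3 times. From 1.05 ± 0.189 FPKM without injury, its mean reached 1.65 ± 0.211, 1.68 ± 0.474 and 1.59 ± 0.326 in order. The differences were 0.37 ± 0.12 (adjusted p = 0.0163), 0.38 ± 0.12 (adjusted p = 0.018) and 0.34 ± 0.12 (adjusted p = 0.0431), and all 3 groups overlapped the uninjured muscles. With quantile normalization these differences were 0.17, 0.22 and 0.20, none of them called (adjusted p = 0.222, 0.133 and 0.207). The call was also lost at day 7 without day 7 replicate 1 (adjusted p = 0.0526) and with 2 groups per fit (adjusted p = 0.0646). At day 14 it was lost without uninjured replicate 1, 2, 3 or 5 or day 14 replicate 1, 3, 4 or 5 (adjusted p from 0.0607 to 0.0966). The day 14 call was lost with a common sum (0.59, adjusted p = 0.0708) and with no filter on low values (adjusted p = 0.0792). At day 21 the difference was 0.29 ± 0.12 and was not called (adjusted p = 0.186).

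Tgfbi (chr13:56609523-56639562, plus strand), a secreted adhesion protein that binds collagens and integrins, had the largest difference of the 10 genes on the log2(FPKM + 1) scale. As a ratio of mean FPKM at day 3, Tgfbi stood at 8.85 and Ltbp2 at 32.8. The uninjured muscles had 3.48, 5.50, 2.73, 3.88 and 3.86 FPKM. The day 3 muscles had 31.4, 25.02, 46.2, 56.1 and 13.5 FPKM, all above the uninjured range, and replicate 5 was the lowest. Tgfbi rose by 2.73 ± 0.37 at day 3 (adjusted p = 5.3e-06) and by 1.65 ± 0.36 at day 7 (adjusted p = 0.00175). At day 7, replicate 5 had 55.1 FPKM and the other 5 samples had 6.96 to 14.3 FPKM, so that 1 library set the upper end of the group. Without it the day 7 difference was 1.27. At day 14 the samples ran from 4.83 to 9.34 FPKM (median 6.99) and overlapped the uninjured range (0.69 ± 0.36, adjusted p = 0.173). The call at day 14 was made when day 3 replicate 5 and day 7 replicate 5 were both left out (adjusted p = 0.0246). After 21 days the values of 5.88, 8.29, 5.11, 3.56 and 4.54 FPKM overlapped too (0.39 ± 0.37, adjusted p = 0.606).

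**Figure D4:**
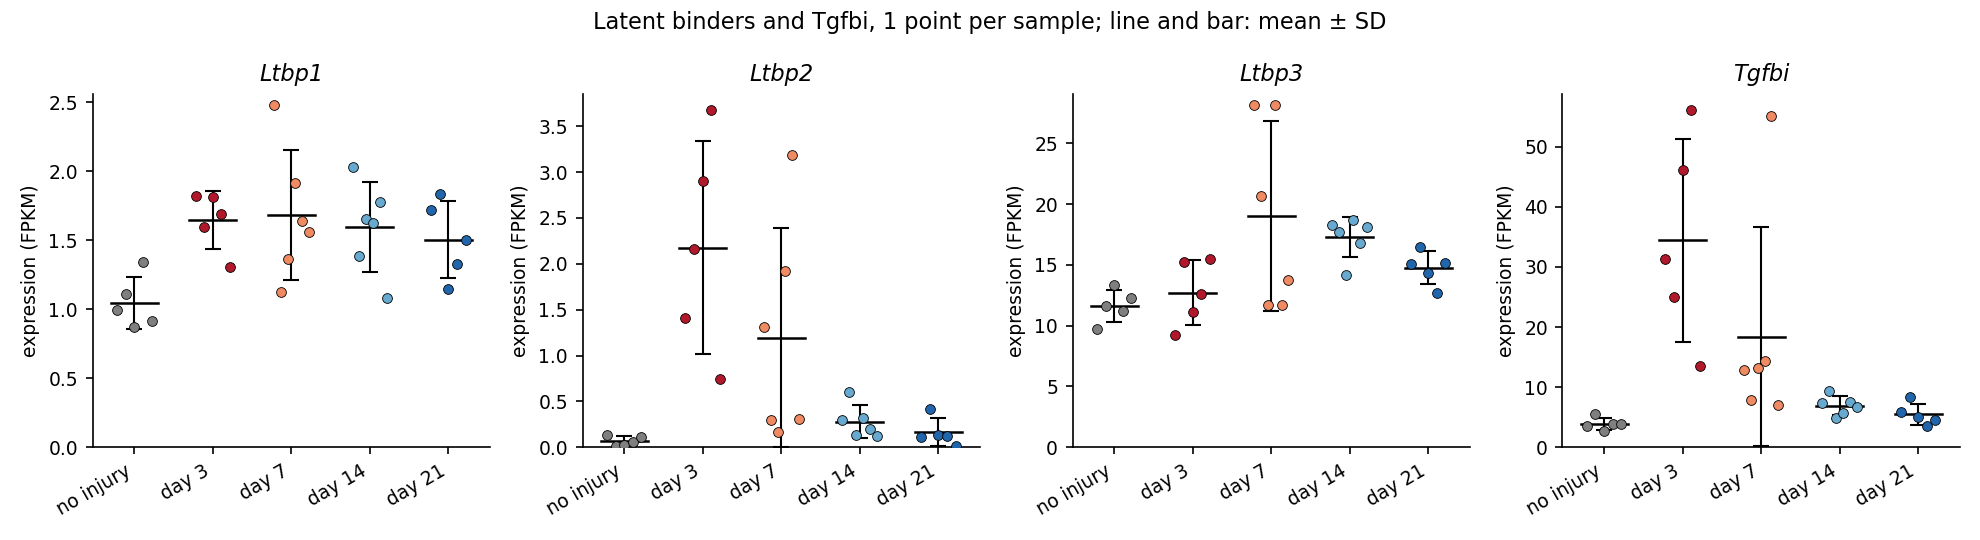
Expression in FPKM (vertical axes, each from 0) of Ltbp1, Ltbp2, Ltbp3 and Tgfbi in 27 muscle samples by group (horizontal axes); points are samples, lines and bars are the mean ± SD. Ltbp2 and Tgfbi are highest at day 3 and in 1 day 7 sample, replicate 5 (3.18 and 55.1 FPKM), while Ltbp3 is highest in 3 of the day 7 samples.

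In the order of mean FPKM without injury, Ltbp3 (11.6) and Tgfb3 (10.4) came first and overlapped each other, followed by Tgfb2 (3.98) and Tgfbi (3.89), which overlapped as well. Tgfb1 (2.95), Tgfbr2 (2.63), Tgfbr1 (2.51) and Tgfbr3 (1.94) each overlapped the next, and Ltbp1 (1.05) and Ltbp2 (0.066) stood below them. At day 3 the order was led by Tgfbi (34.4), Tgfb1 (20.3) and Tgfb3 (16.98), which overlapped their neighbours, and Ltbp3 (12.7) came next.

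Comparisons between neighbouring times asked when the members moved. At day 7 against day 3, none of the 10 members was called, beside 0.0478% of all genes in either direction, although 4 members had an unadjusted p under 0.05 (2301 of all genes). This count rested on day 7 replicate 5. Without it, 4 members were called, beside 2.17% of all genes called higher and 10.1% lower. Tgfb1 was then lower at day 7 (−1.05 ± 0.33, adjusted p = 0.0375). Ltbp2 was lower (−0.84 ± 0.23, adjusted p = 0.0144), and so was Tgfbi (−1.45 ± 0.28, adjusted p = 0.000669), whereas Ltbp3 was higher (0.59 ± 0.18, adjusted p = 0.0351). Ltbp2 entered the test through the groups in which it was high, day 3 among them. Tgfbi alone was called without day 3 replicate 5 (adjusted p = 0.0271), beside 0.560% of all genes called higher and 4.43% lower. Tgfb1, Ltbp2, Ltbp3 and Tgfbi were called with both libraries left out, beside 3.53% higher and 11.9% lower. At day 14 against day 7, and at day 21 against day 14, none of the members was called, beside 0.335% and 0% of all genes. In each of these comparisons 2 members had an unadjusted p under 0.05.

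From day 3 to day 21, 4 members fell and none rose, beside 16.2% of all genes called lower and 9.23% called higher. Tgfbi fell by 2.34 ± 0.37 (adjusted p = 0.00011), Ltbp2 by 1.38 ± 0.27 (adjusted p = 0.000644), Tgfbr2 by 0.97 ± 0.22 (adjusted p = 0.00236) and Tgfb1 by 1.08 ± 0.38 (adjusted p = 0.0382). Ltbp2 entered the test through the groups in which it was high, with no day 21 sample at the minimum of 0.5 FPKM. For Tgfbi, Ltbp2 and Tgfbr2, every day 21 sample was below every day 3 sample, and for Tgfb1 the groups overlapped. The Tgfb1 call was lost without day 3 replicate 1, 3 or 4 or day 21 replicate 4 or 5 (adjusted p from 0.0614 to 0.125). Tgfbr3 had a difference of 0.36 ± 0.16 in the other direction (adjusted p = 0.0966), and was called without day 3 replicate 5 (0.46, adjusted p = 0.0364).

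Across the 27 samples the members fell into profiles of unequal likeness, given here as Pearson correlations of log2(FPKM + 1) with no test, since the samples share the group differences and the scaling. Ltbp2 and Tgfbi were most alike, with r = 0.94, and r = 0.82 after the group means were removed. Tgfb1 went with Tgfbr2 (r = 0.80) and Ltbp2 (r = 0.79), and against Tgfb2 (r = −0.74). Of all other genes, those near to Tgfb1 included Nfkb2, an NF-κB subunit (r = 0.97), and Lmna, which encodes nuclear lamins (0.96). The 3 nearest to Tgfbi were Cotl1 (0.97), Itgb2, the beta chain of leukocyte integrins (0.97), and Cybb, a subunit of the phagocyte oxidase (0.97). Ltbp2 was nearest to Basp1 (0.97), Plxnc1 (0.97) and Adgre1, the macrophage antigen F4/80 (0.96). Tgfbr2 was nearest to Mest (0.96), Plod2, a collagen lysyl hydroxylase (0.94), and Col6a3, a collagen VI chain (0.94). After the group means were removed, the correlations of these genes with Tgfb1, Tgfbi, Ltbp2 and Tgfbr2 were between 0.85 and 0.93. Tgfb2 was nearest to Epdr1 (0.89), Tmem182 (0.89) and Sucla2, a subunit of a mitochondrial enzyme of the citric acid cycle (0.89). The nearest genes were Cct3 (0.82), Zswim4 (0.82) and Ttf2 (0.82) for Tgfb3, Arfgap3 (0.84), Tec (0.84) and Ampd3 (0.83) for Tgfbr1, and Peg3 (0.86), Zfc3h1 (0.86) and Mid2 (0.85) for Tgfbr3. They were Slc4a7 (0.83), Rcor1 (0.82) and Bmp2 (0.81) for Ltbp1, and Whrn (0.89), Trp63 (0.87) and Ypel2 (0.87) for Ltbp3.

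Markers of some other cell types were higher at day 3, as most members were, while those of others were lower or not called. The counts stand beside 23.4% of all genes called higher and 19.8% lower at day 3, and 15% and 14.4% at day 7. Macrophage markers, 8 of 8 higher at day 3 and 7 of 8 at day 7, had sums of 30.8 to 43.0 FPKM in uninjured muscle and, over the 4 times in order, of 571 to 3008, 77.2 to 2886, 70.4 to 175 and 56.2 to 99.7, and none of the 8 was at 0 in any sample. The sum was 2886 in day 7 replicate 5, the library with the highest Tgfb1, Ltbp2 and Tgfbi of its group, and 571 in day 3 replicate 5, the lowest of its group for these 3 genes. Neutrophil markers, 3 of 3 tested higher at day 3, had sums of 0.456 to 4.31 FPKM in uninjured muscle and 20.1 to 37.6 after 3 days, with Retnlg at 0 in 17 samples and Cxcr2 at 0 in 16. Markers of satellite cells and myoblasts, 4 of 5 higher at day 3, summed to 17.1 to 26.3 and to 98.2 to 385 FPKM in the same groups. Myofibre markers, 6 of 8 lower at day 3 and 3 of 8 at day 7, had sums of 64707 to 80389 FPKM in uninjured muscle, 19075 to 44868 after 3 days and 51960 to 74416 after 21 days, so they were abundant in every sample.

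Fibro-adipogenic progenitor markers, from the connective tissue of muscle, were higher for 3 of 6 tested at day 3, with sums of 162 to 242 FPKM in uninjured muscle and 213 to 301 after 3 days. Of the other lists at day 3, 1 of 4 tenocyte markers tested was higher (Scx), 3 of 5 mural and 2 of 6 endothelial markers were lower, 1 of 3 platelet markers was lower, and no T cell, Schwann or adipocyte marker was called. At day 7, 4 of 4 adipocyte markers were higher, with sums of 346 FPKM in replicate 3, 193 in replicate 6 and 157 in replicate 4, against at most 25.4 without injury. Schwann cell markers summed to 1042 FPKM in day 7 replicate 6, against 11.9 to 144 in the other day 7 samples. Of the day 7 samples, replicate 3 had the lowest Tgfb1 and Tgfb3, and replicate 6 the lowest Tgfbr1 and Tgfbr2. The part of any of these cell types in the members' differences was not tested.

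The pathway beyond the 10 members was read from 6 lists of other genes. Their counts stand beside 23.4%, 15%, 9.02% and 1.74% of all genes called higher at the 4 times in order. The shares of all genes called lower were 19.8%, 14.4%, 11.3% and 1.69%. Of genes for latency and activation, which encode the matrix, integrins and proteases that hold or release the ligand, 13 of 18 tested were higher and 1 lower at both day 3 and day 7, while 4 and 1 were higher at the last 2 times. Mmp14, a membrane-bound matrix metalloprotease, was higher by 2.51 ± 0.30 at day 3 (adjusted p = 8.71e-07) and by 1.09 ± 0.30 at day 21 (adjusted p = 0.0392). The day 21 call was lost with a common sum (1.22, adjusted p = 0.261), with the own total of reads (adjusted p = 0.12) and with quantile normalization (adjusted p = 0.0901). Thbs1, thrombospondin, was higher by 2.12 ± 0.39 at day 3 (adjusted p = 0.000128). Nrros, which tethers latent TGF-β on myeloid cells and microglia, was higher by 1.98 ± 0.34 (adjusted p = 6.05e-05). Of the matrix binders of TGF-β, 4 of 6 were higher at days 3, 7 and 14 and 1 at day 21, and none was lower, whereas with a common sum none was called at day 21. Bgn (biglycan) rose by 2.85 ± 0.32 at day 3 (adjusted p = 5.36e-07), and Lum (lumican) by 1.86 ± 0.31 at day 7 (adjusted p = 0.000162). Aspn (asporin) rose by 1.65 ± 0.26 at day 3 (adjusted p = 2.72e-05).

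Of genes known to respond to TGF-β, 18, 15, 17 and 5 of 21 were higher at the 4 times in order, and none was lower. Timp1, an inhibitor of metalloproteases, rose by 4.46 ± 0.44 at day 3 (adjusted p = 1.18e-07), and Cthrc1, a secreted protein of activated fibroblasts, by 4.45 ± 0.47 (adjusted p = 2.52e-07). Postn (periostin) rose by 3.95 ± 0.48 (adjusted p = 1.27e-06). At day 21 the genes of this list still called were Col1a1, Col1a2, Col3a1, Id1 and Timp1, with differences from 1.25 to 1.61. With a common sum per sample the list held 20, 20, 14 and 0 higher genes, beside 46.9%, 42.7%, 10.9% and 0.265% of all genes. The median difference of the list was 2.05, 1.35, 1.08 and 0.71, against 0.01, 0.03, 0.02 and 0.01 for all genes tested. Genes of this list also respond to other signals of injury.

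The lists of co-receptors, inhibitors and Smads held calls in both directions in the deposited scaling, and no lower call at day 3 with a common sum. Of the co-receptors and receptor regulators, 5 of 13 were higher and 2 lower at day 3, beside 23.4% and 19.8% of all genes. At day 14, 2 were higher and 3 lower, beside 9.02% and 11.3% of all genes. Dab2, an endocytic adaptor, was higher by 1.94 ± 0.32 at day 3 (adjusted p = 3.6e-05), and Cd109, a co-receptor that promotes receptor loss, by 1.41 ± 0.21 (adjusted p = 1.24e-05). Zfyve9, which encodes the adaptor SARA, fell by 1.18 ± 0.22 (adjusted p = 0.000131), and by 0.46 with a common sum per sample (adjusted p = 0.0941). With a common sum, 9 of these 13 genes were higher at day 3 and none was lower, beside 46.9% and 2.13% of all genes. Of the inhibitors of the signal, 4 of 11 tested were higher and 3 lower at day 3, beside 23.4% and 19.8% of all genes. With a common sum the counts were 4 and 0, beside 46.9% and 2.13% of all genes. Tgif1, a corepressor, rose by 1.2 ± 0.22 (adjusted p = 0.000118) and Pmepa1 by 0.96 ± 0.19 (adjusted p = 0.000288). Ppm1a, a phosphatase of SMADs, fell by 1.05 ± 0.22 at day 3 (adjusted p = 0.000402) and by 0.83 ± 0.22 at day 21 (adjusted p = 0.0315), and was called at neither day with a common sum per sample (adjusted p = 0.351 and 0.364). Of the 3 Smads, Smad3 fell by 0.63 ± 0.21 (adjusted p = 0.019) and Smad4 by 0.42 ± 0.12 (adjusted p = 0.00432) at day 3 in the deposited scaling, but had differences of 0.15 and 0.30 with a common sum per sample, neither of them called. At day 14 Smad4 differed by −0.46 ± 0.11 (adjusted p = 0.00501), against −0.04 with a common sum. Smad2 was higher by 0.59 ± 0.22 at day 7 (adjusted p = 0.0445), a call lost with quantile normalization (0.45, adjusted p = 0.112) and without both day 3 replicate 5 and day 7 replicate 5 (0.51, adjusted p = 0.0992).

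**Figure D5:**
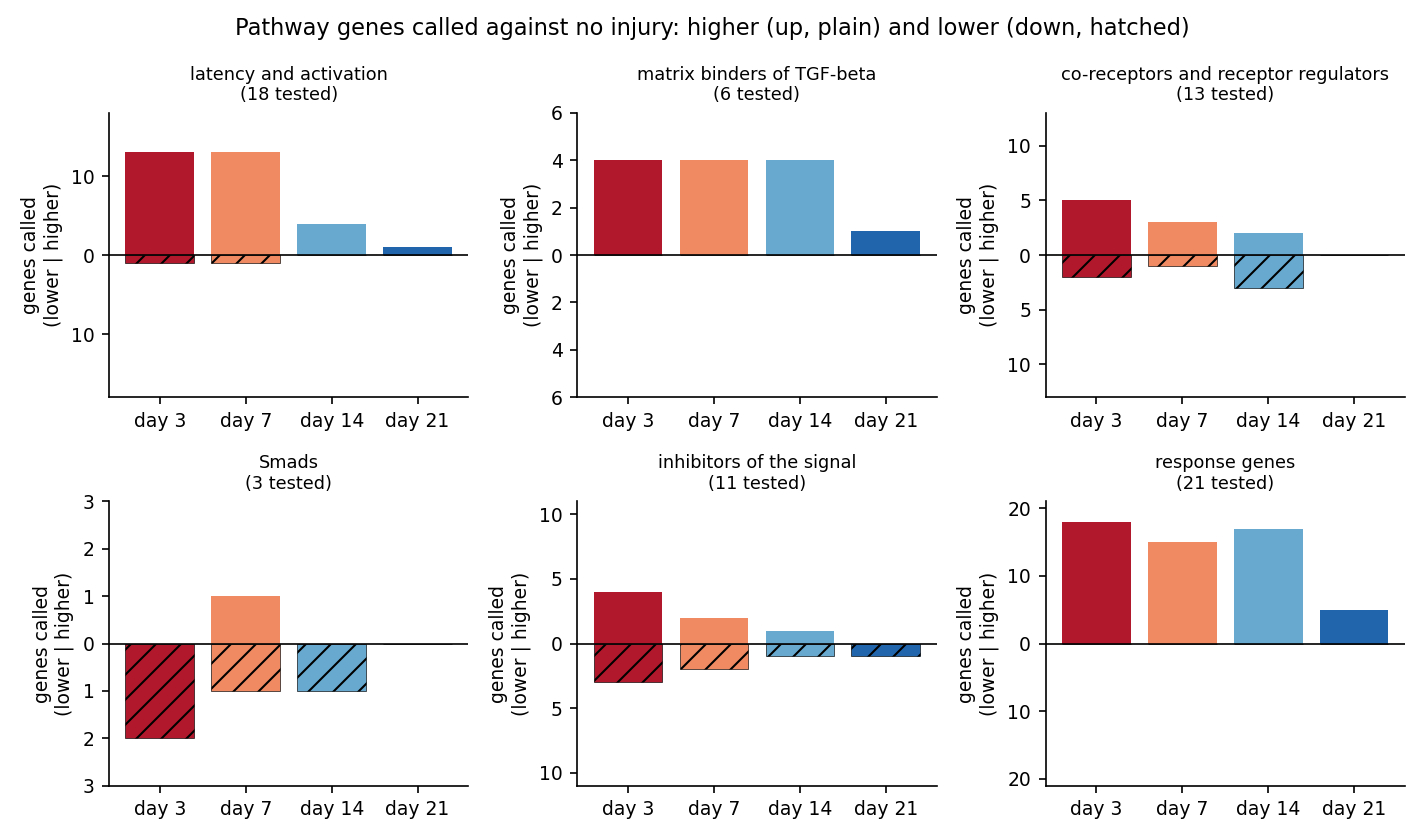
Number of genes called against muscle without injury in each of 6 pathway lists (vertical axes, genes; higher upward, lower downward and hatched) at days 3, 7, 14 and 21 (horizontal axes); each axis ends at the number tested. Of the response genes 18, 15, 17 and 5 of 21 are higher, beside 23.4%, 15%, 9.02% and 1.74% of all genes. The Smads and the inhibitors of the signal hold calls in both directions in the deposited scaling, and no lower call with a common sum.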

How the data were processed

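Total RNA of 27 tibialis anterior muscles was purified by poly-T selection and sequenced from libraries that keep no strand. The submitters' processing notes name HISAT2 2.0.5 and featureCounts 1.5.0-p3, and the genome build is not given in the sources used here. The authors deposited 1 table of FPKM, already scaled between samples in a way their methods do not describe. Median-ratio scaling of that table changed little: at day 3, 3414 genes were called higher and 2900 lower, against 3417 and 2899. FPKM times gene length gave whole reads for 100% of the values above 0 (tolerance 0.02), so the depth behind each FPKM is known, and the denominator in use was between 0.747 and 1.48 of the total of the sample itself. The coordinates of the 10 members were the same as in GENCODE M21 on GRCm38.

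Genes with at least 0.5 FPKM in at least 5 samples were fitted on log2(FPKM + 1) by limma 3.58.1 (R 4.3.3) in 1 model of the 5 group means over 27 samples, with a variance trend. The two-sided p-values were adjusted by Benjamini-Hochberg within each of 8 comparisons over 14630 genes. Intervals are at 95%. The low depth of a gene such as Ltbp2 limits its precision. The fit was tested on simulated data.

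Groups and replicate numbers came from the sample titles. The members and the gene lists were chosen with earlier results of these data known, by the gene symbols of the pathway and by cell type. Named genes are the 10 members, for each of 6 pathway lists up to 3 genes with the largest difference at any day among those called, and the 3 other genes most correlated with each member, of which 1 is not reported here. Ttll5, Scx and the response genes called at day 21 were named after their values were seen. Hgs has 2 rows in the table and was left out of its list. Alternatives were a pseudocount of 0.1, no filter, a minimum of 1 FPKM, quantile normalization, a common sum per sample, median-ratio scaling, no trend, voom on the recovered reads, sample quality weights, 2 replicate blocks, 2 groups per fit and each sample left out. After the data were seen, the own total of reads as denominator and the removal of both day 3 replicate 5 and day 7 replicate 5 were added. Python 3.11.15, pandas 2.3.3 and matplotlib 3.10.9 were used for tables and figures.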

Additional observations from a re-analysis of the deposited data

Results flagged for a closer look

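In 50 groups of samples, 10 genes in 5 groups, a sample that stood apart from the rest of its group (Dixon's gap at 95%) was found 3 times, and chance gives about 1 in 20. Day 7 replicate 5 had 55.1 FPKM of Tgfbi, where the next highest day 7 sample had 14.3. Day 7 replicate 1 had 5.49 FPKM of Tgfbr3, where the next had 3.63. Day 21 replicate 5 had 4.63 FPKM of Tgfbr1, where the next had 3.83.

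The comparison of day 21 with day 3 given above also flagged the 4 genes Tgfb1, Tgfbr2, Ltbp2 and Tgfbi, with adjusted p-values of limma under 0.05. It is the same comparison and no further test, and its Tgfb1 call was lost in 5 leave-outs. The differences of day 21 minus day 3 were −1.08 for Tgfb1, −0.97 for Tgfbr2, −1.38 for Ltbp2 and −2.34 for Tgfbi.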

How the results depend on the processing

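Over 41 alternatives and the 40 differences of members from no injury, 1548 values kept their direction and their side of the threshold, 46 were no longer called, 42 were newly called and 4 changed direction. The changes of direction were Tgfb2 with a common sum per sample at day 3 (0.0058) and day 7 (0.206), Tgfb2 at day 7 with the own total of reads (0.064), and Tgfb3 at day 21 without day 21 replicate 1 (−0.033, with 0.228 the highest value among leave-outs of day 21). The number of members called at day 3 was 7 and stayed within 1.5 times that under every alternative. At day 7 it fell from 8 to 5 with 2 groups per fit. At day 14 it fell from 7 to 4 with no filter on low values, for which 31179 genes were tested. Of those genes, 3.09% were called higher and 3.99% lower. At day 21 the 1 call became 2 with a pseudocount of 0.1, 4 with sample quality weights, 3 with 2 groups per fit, 2 with both day 3 replicate 5 and day 7 replicate 5 left out, and 0 with a common sum per sample or with the own total of reads. In the order of these 6 settings, 2.82%, 8.17%, 5.17%, 2.52%, 0.265% and 0.693% of all genes were called higher. The shares called lower were 1.61%, 8.71%, 4.92%, 2.28%, 0.0331% and 0.168%. At day 7 against day 3 the count rose from 0 to 3 with sample quality weights, beside 2.83% of all genes called higher and 10.1% lower. It rose to 4 without those 2 libraries, beside 3.53% higher and 11.9% lower. At day 21 against day 3 the count rose from 4 to 7 with sample quality weights, beside 19.7% of all genes higher and 24.5% lower. Leaving out each library in turn gave 7 to 8, 6 to 9, 4 to 7 and 1 to 2 members against no injury for the 4 times in order, 0 to 4 for day 7 against day 3 and 3 to 5 for day 21 against day 3, and 0 for day 14 against day 7 and for day 21 against day 14. The cause of these changes was not tested, apart from the scaling, which is given by construction.

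Over the alternatives, all-gene counts against no injury ran from 5289 to 8251, 2901 to 6665, 1752 to 4324 and 45 to 2471 for the 4 times, where 6316, 4296, 2969 and 502 were reported. The leave-outs are among these alternatives. Day 7 against day 3 gave 1 to 2265 genes (7 reported), day 14 against day 7 gave 5 to 151 (49) and day 21 against day 3 gave 2316 to 6472 (3728). At day 21 against day 14 the count was 0 throughout, with 909 genes at an unadjusted p under 0.05.

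Samples of different groups were correlated after the group means were removed. Pairs with the same replicate number had a median correlation of −0.003 (15 of 51 over 0.1), and pairs with different numbers 0.003 (55 of 240). For the letters in the descriptions, pairs with the same letter had 0.020 (15 of 49), and pairs with different letters 0.0007 (55 of 242). Such correlations cannot decide whether the numbers or letters pair the samples, because they do not show which samples share a mouse. The replicate block by number gave 8, 8, 7 and 1 members at days 3, 7, 14 and 21, and the replicate block by letter 8, 8, 7 and 3. At day 21 the block by number called 2.67% of all genes higher and 2.77% lower, and the block by letter 3.81% and 4.61%. At day 3 both blocks also called Tgfb3 (adjusted p = 0.0315 and 0.0213).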
